A study of Mus musculus with 8 samples.

Results

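The genes described here are those of the G1 step of the cell cycle: the D-type cyclins Ccnd1, Ccnd2 and Ccnd3, the E-type cyclins Ccne1 and Ccne2, the kinases Cdk4 and Cdk6, and the inhibitors Cdkn1a, Cdkn1b and Cdkn1c. They were taken by name, as the probe sets whose only gene symbol in the platform's gene table was one of these 10. The array held such a probe set for 9 of the 10, and all 9 passed the intensity filter, among 13039 genes with a kept probe set. Cdkn1a shares its probe set in that table with another gene and is given no value. The pregnant group was 4 samples of uterine tissue from C57BL/6 mice, an inbred strain, bought as young virgins and mated with stud males. They were collected on day 3 at 22 h, counting the mating night as day 0, and a uterus was used where a blue dye test showed no attached embryo and healthy blastocysts came out on flushing. The pseudopregnant group was 4 samples from mice of the same purchase and collection time whose mates were vasectomised, so that no embryo was present. The labels name no allele and no hormone treatment for either group. They give the dye test and the flushing for the pregnant mice only, so these steps, the kind of mate and the embryos cannot be told apart. In both groups the samples with the best RNA quality had been selected, with RNA integrity numbers from 6.9 to 8.7 over the 8.

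Cells enter the cycle by passing from G1 to DNA replication. D-type cyclins, made when growth factors act on a cell, bind Cdk4 or Cdk6, and these kinases phosphorylate the retinoblastoma (Rb) protein and so release the E2F transcription factors. E2F factors switch on the E-type cyclins, which with Cdk2 complete the phosphorylation of Rb and start replication. The CIP/KIP proteins, p21, p27 and p57, encoded by Cdkn1a, Cdkn1b and Cdkn1c, bind cyclin-CDK complexes and restrain those of Cdk2. In the mouse uterus before attachment, progesterone and estrogen end the division of the epithelium and start that of the stroma. Cyclin D3 is known there for its part in the stromal cells that later form the decidua.

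Each array measured the total RNA of 1 sample, in linear intensities to which log2 was applied, and differences are pregnant minus pseudopregnant on the log2 scale. Median intensities of the arrays lay between 55.2 and 56.3. Pregnant replicate 2 stood apart from the other arrays of its group on the first axis of variation, at -26.7 against -6.6 to -4.9 for the other 3. Pseudopregnant replicate 1 stood apart from its own group on that axis, at 20.3 against 6.8 to 9.3, and without it 40 probe sets passed the limma test, as many as without pseudopregnant replicate 3, against 319 with all arrays. Markers of epithelium (9 of 10 listed), stromal fibroblasts (10 of 10) and smooth muscle (8 of 8) lay above the filter. A gene is said to have risen or fallen where its adjusted p in limma's moderated test, corrected by Benjamini-Hochberg over all 17494 kept probe sets, lay under 0.05. Of these probe sets 1.82% were called, 1.41% higher and 0.412% lower in the pregnant group. Of the 9 members 1 rose, Ccne2, and 0 fell. At an unadjusted limma p under 0.05, 4 of the 9 were higher (Ccne2, Ccne1, Ccnd1 and Cdk4) and 0 were lower, against 14.3% and 9.43% of all kept probe sets and 23.7% in either direction. The difference was above 0 for 6 of the 9, as for 50.6% of all kept probe sets. The median difference of the 9 was 0.13, beside 0.0019 over all kept probe sets.

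**Figure D1:**
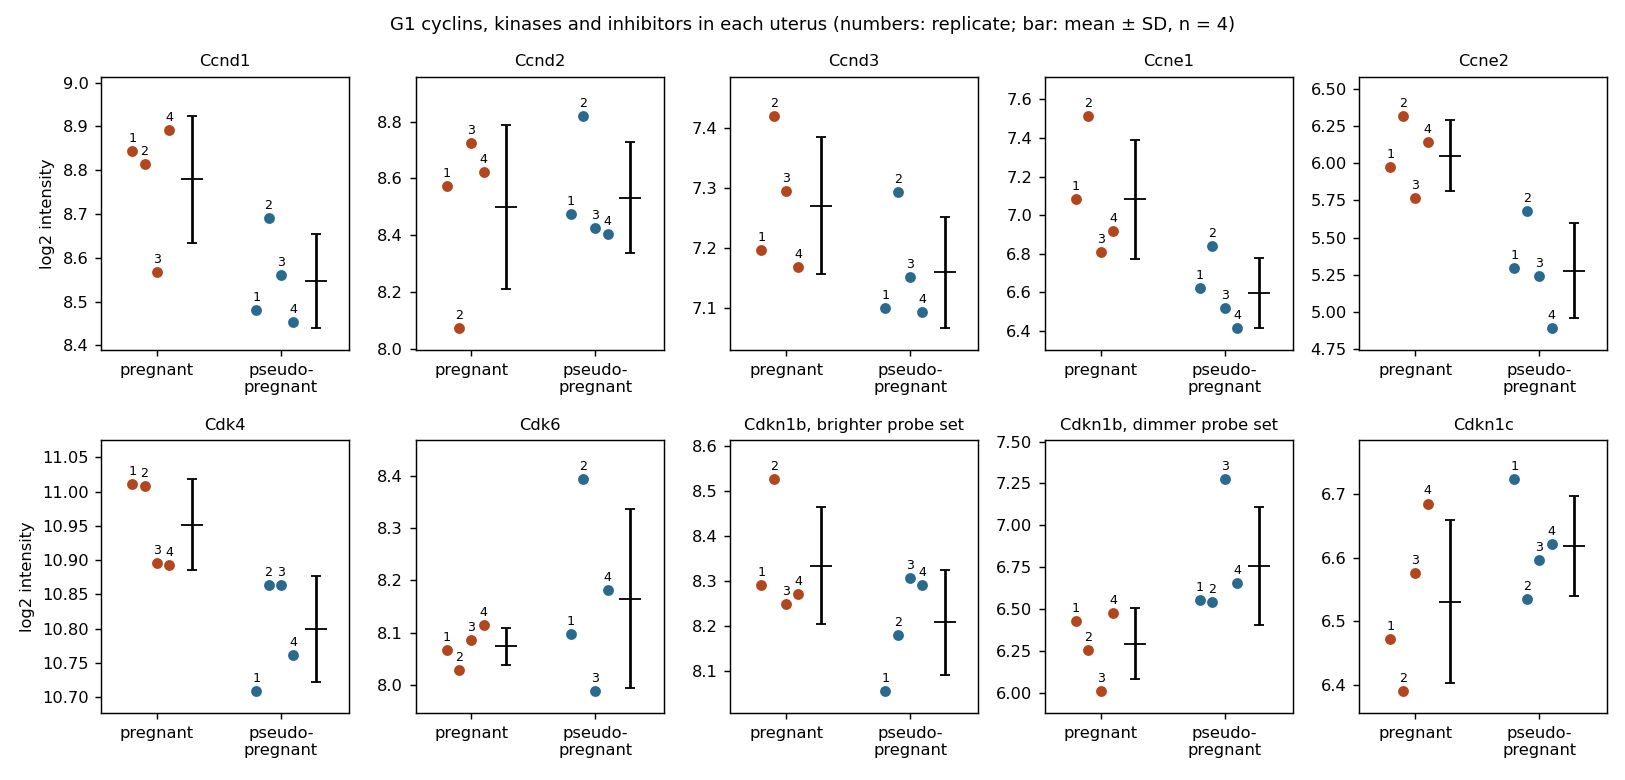
Log2 intensity of each G1 gene on the 4 pregnant (left) and 4 pseudopregnant (right) arrays, with replicate numbers above the points and the mean ± SD beside them. Only the panels of Ccne2 and Cdk4, with the pregnant arrays above, and of the dimmer Cdkn1b probe set, with the pregnant arrays below, show groups that do not overlap.

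The E-type cyclins had the 2 largest differences among the members. Ccne2, an E-type cyclin induced by E2F factors, read 5.98, 6.32, 5.76 and 6.14 in pregnant replicates 1 to 4, against 5.30, 5.68, 5.24 and 4.89 in pseudopregnant replicates 1 to 4. The groups did not overlap, and the lowest pregnant value, of replicate 3, lay just above the highest pseudopregnant value, of replicate 2. Ccne2 averaged 6.05 ± 0.24 in the pregnant group and 5.28 ± 0.32 in the pseudopregnant group (SD, n = 4 each). It rose by 0.77 ± 0.16 (SE; 95% interval 0.42 to 1.13), which is 1.71-fold, with a limma adjusted p of 0.045. In pseudopregnant replicates 1, 3 and 4 it lay among the dimmest 40% of the probe sets, a range where intensities are compressed, so the size is not exact. It passed the intensity filter with 5 of 8 arrays, 4 of them pregnant and 1 pseudopregnant, so its entry into the test itself leaned on the pregnant arrays. In bulk tissue a different number of cells that make a transcript and a different amount per cell cannot be told apart, here and for every gene below.

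The call for Ccne2 lay near the threshold and was not kept without most of the single arrays or without the filter. Its adjusted p was 0.078, 0.082 and 0.091 without pregnant replicates 1, 2 and 4, and 0.11, 0.095 and 0.067 without pseudopregnant replicates 1, 3 and 4, and the call was lost each time. It was kept without pregnant replicate 3 (0.046) and without pseudopregnant replicate 2 (0.045). Over all kept probe sets, too, calls fell from 319 to between 40 and 235 when an array was left out. The Ccne2 difference itself stayed between 0.65 and 0.91 whichever array was left out. Without the intensity filter the adjusted p was 0.078, and with the filter asked of all 8 arrays Ccne2 was not tested. The plot of its adjusted p under each setting shows 10 of 17 alternatives under the threshold.

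**Figure D2:**
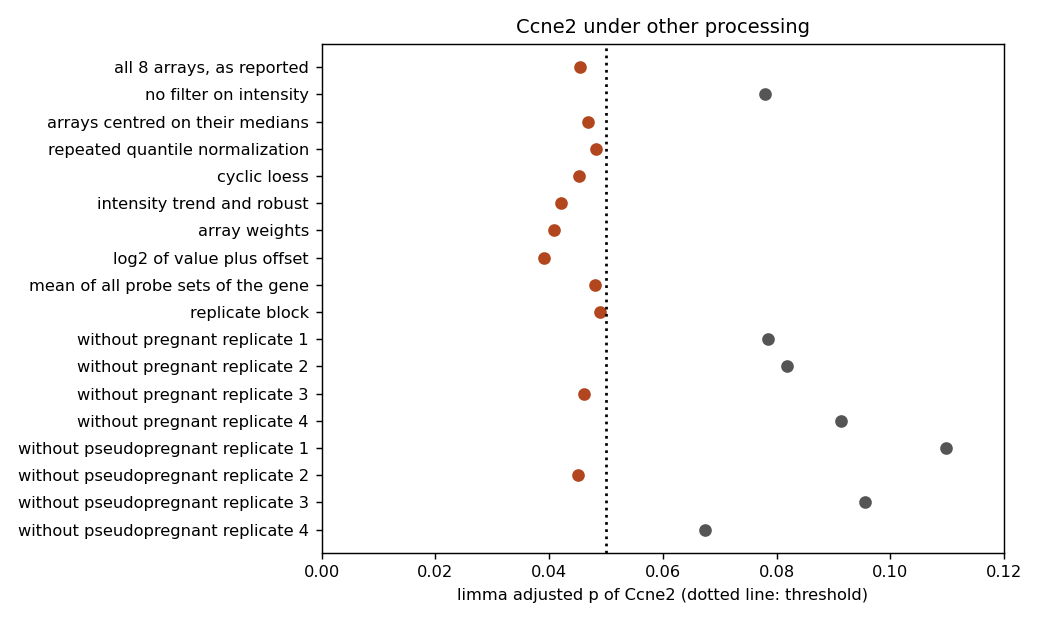
Limma adjusted p of Ccne2 with all 8 arrays and under 17 alternatives, with the threshold as a dotted line. The values run from 0.039 to 0.11, and 6 of the 8 that leave out an array lie to the right of the line.

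Ccne1, the other E-type cyclin, read 7.08, 7.52, 6.81 and 6.92 on the pregnant arrays, against 6.62, 6.84, 6.52 and 6.42 on the pseudopregnant arrays. Pregnant replicate 2 was the highest, and pregnant replicate 3 lay below pseudopregnant replicate 2, so that the groups overlapped in that pair of arrays. The difference was 0.48 ± 0.15 (SE; 95% interval 0.16 to 0.81), 1.40-fold, and did not pass (limma adjusted p = 0.096). Without pregnant replicate 2 it was 0.34 (adjusted p = 0.13), and without single arrays the adjusted p ran between 0.088 and 0.19. Within each array, Ccne1 minus Ccne2 differed by -0.29 between the groups, at 1.03 ± 0.18 in the pregnant group against 1.32 ± 0.15 in the pseudopregnant group (SD, n = 4 each). That difference did not pass an exact two-sided permutation test over the 70 arrangements of the arrays (p = 0.057, 0.26 adjusted over the 6 pairs of relatives compared).

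The upstream sequence of Ccne1 is shown because E-type cyclins had the largest differences and E2F sites are the textbook route to them; it is the 250 bases before the RefSeq start on GRCm38.p6, chr7:38107491-38107740, minus strand, written 5′ to 3′. Ccne2, the E-type cyclin that rose, has no entry among the RefSeq promoters used. Capitals mark the GC box GGGCGG on either strand, and no E2F site is marked.
Ccne1: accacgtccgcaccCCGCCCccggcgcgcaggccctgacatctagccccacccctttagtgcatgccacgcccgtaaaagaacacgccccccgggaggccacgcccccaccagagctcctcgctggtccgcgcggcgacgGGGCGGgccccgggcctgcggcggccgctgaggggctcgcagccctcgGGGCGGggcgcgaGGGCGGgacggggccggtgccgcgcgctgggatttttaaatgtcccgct
The GC box stands there 4 times, a number reached by 4.09% of the 32851 promoter windows of the same length in the RefSeq table, while 32.7% hold it at least once. The E2F motifs TTTCCCGC, TTTGGCGC and TTTCGCGC, searched on both strands, had 0 matches in the 6 windows of the 5 measured members in that table. Only 1.53% of all windows held any of them, so 0 matches in so few windows says little. Other variants of the E2F site were not searched, so these windows are not shown to lack one. These letters are a description of 1 window and bear on no factor's binding.

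The D-type cyclins differed less. Ccnd1, a cyclin raised by growth factor signalling, read 8.84, 8.81, 8.57 and 8.89 on the pregnant arrays, against 8.48, 8.69, 8.56 and 8.45 on the pseudopregnant arrays. Of the pregnant arrays, 3 lay above every pseudopregnant array, and replicate 3 lay among them. The difference was 0.23 ± 0.082 (SE; 95% interval 0.050 to 0.42) and did not pass (limma adjusted p = 0.13, and 0.073 to 0.27 without single arrays). Ccnd2 read 8.58, 8.07, 8.73 and 8.62 on the pregnant arrays, against 8.48, 8.82, 8.43 and 8.40 on the pseudopregnant arrays. Pregnant replicate 2 was the lowest of all 8, and the groups overlapped widely. Its difference was -0.03 ± 0.14 (SE; 95% interval -0.35 to 0.29; limma adjusted p = 0.91), and it turned to 0.11 without pregnant replicate 2 and to 0.064 without pseudopregnant replicate 2. Ccnd3, the D-type cyclin of the decidualising stroma, read 7.20, 7.42, 7.30 and 7.17 on the pregnant arrays, against 7.10, 7.29, 7.15 and 7.09 on the pseudopregnant arrays. All 4 pregnant values lay above the 3 lowest pseudopregnant ones, and pseudopregnant replicate 2 lay among them. The difference of 0.11 ± 0.071 (SE; 95% interval -0.048 to 0.27) did not pass (limma adjusted p = 0.37), and a change of Ccnd3 beyond 1.21-fold upward lies outside that interval. Without pregnant replicate 2 the Ccnd3 difference was 0.061 (adjusted p = 0.66).

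Between relatives, the within-array difference of Ccnd1 and Ccnd2 was 0.26 higher in the pregnant group (exact permutation p = 0.26, adjusted 0.39), 0.11 without pregnant replicate 2 and 0.41 without pregnant replicate 3. Ccnd1 minus Ccnd3 was 0.12 higher (exact permutation p = 0.37, 0.45 after adjustment), and 0.076, 0.20 and 0.051 without pregnant replicates 1, 3 and 4. Ccnd2 minus Ccnd3 differed by -0.14 (exact permutation p = 0.77, also after adjustment), by 0.049 without pregnant replicate 2, and by -0.22 and -0.091 without pregnant replicate 4 and pseudopregnant replicate 2. None of the 3 tests of the D-type pairs shows that these cyclins responded differently, and none shows that they responded alike. Within the pseudopregnant group, replicate 2 was the highest for 5 of 5 cyclins and for 7 of the 9 members. Replicate 4 was the lowest for 5 of 5 cyclins and for 5 of the 9 members. These ranks were not counted over all kept genes, so whether they are particular to cyclins was not tested. In the pregnant group replicate 2 was the highest for 3 of the 5 cyclins, Ccnd3, Ccne1 and Ccne2, and the lowest for Ccnd2. Pregnant replicate 3 was the lowest for Ccnd1, Ccne1 and Ccne2.

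**Figure D3:**
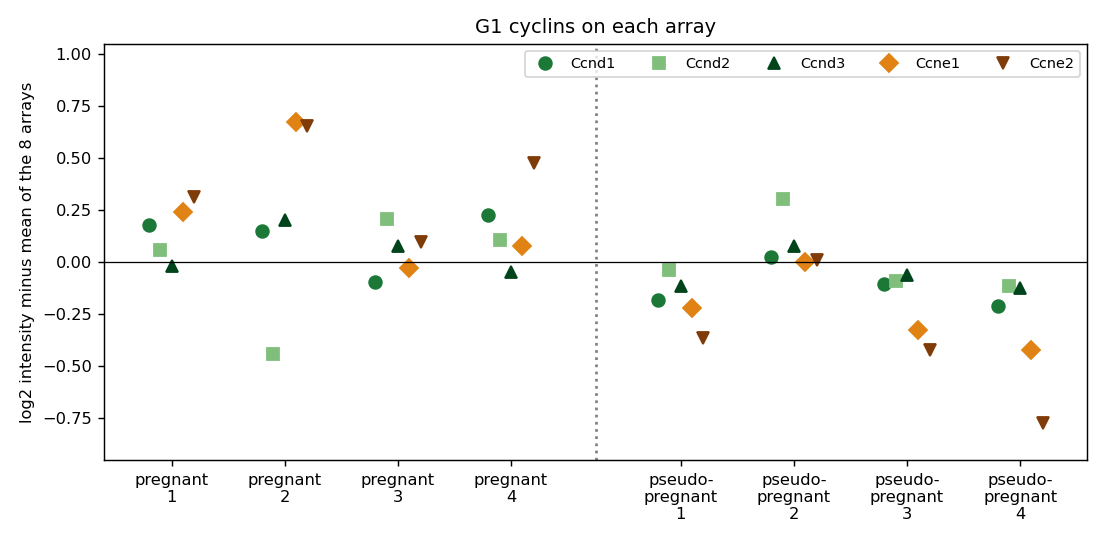
Log2 intensity of the 5 G1 cyclins on each array, minus the mean of that gene over the 8 arrays, pregnant arrays to the left of the dotted line. Ccne1 and Ccne2 stand at 0.67 and 0.65 on pregnant replicate 2, where Ccnd2 stands at -0.44, and the 5 cyclins are all below 0 on pseudopregnant replicates 1, 3 and 4.

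Cdk4, the kinase partner of D-type cyclins, read 11.01, 11.01, 10.90 and 10.89 on the pregnant arrays, against 10.71, 10.86, 10.86 and 10.76 on the pseudopregnant arrays. The groups did not overlap, by a small gap between pregnant replicate 4 and pseudopregnant replicates 2 and 3. Cdk4 averaged 10.95 ± 0.067 in the pregnant group and 10.80 ± 0.077 in the pseudopregnant group (SD, n = 4 each). The difference of 0.15 ± 0.059 (SE; 95% interval 0.022 to 0.28), 1.11-fold, did not pass (limma adjusted p = 0.16). Groups that do not overlap, with the pregnant arrays higher, were found for 2 of the 9 members, Ccne2 and Cdk4, and for 9.23% of all kept probe sets, so the count says little about these genes. The 250 bases before the RefSeq start of Cdk4 on GRCm38.p6, chr10:127063285-127063534, plus strand, are shown because this is the other member whose groups lay apart and for the E-box CACGTG, the recognition sequence of Myc and related factors, in capitals.
Cdk4: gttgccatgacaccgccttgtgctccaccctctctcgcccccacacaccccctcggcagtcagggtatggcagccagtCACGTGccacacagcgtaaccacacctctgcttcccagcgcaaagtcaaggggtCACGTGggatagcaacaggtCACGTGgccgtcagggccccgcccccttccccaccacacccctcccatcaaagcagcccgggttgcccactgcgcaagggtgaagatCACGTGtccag
The E-box stands there 4 times, beginning 172, 118, 98 and 11 bases before the start. It reads the same on both strands. Of the 32851 windows, 6.02% held it at least once and 7 held it at least 4 times, and this motif was chosen after the sequence had been seen.

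Cdk6, the second partner of D-type cyclins, read 8.07, 8.03, 8.09 and 8.11 on the pregnant arrays, against 8.10, 8.39, 7.99 and 8.18 on the pseudopregnant arrays. The pregnant values lay within the range of the pseudopregnant ones, whose spread was wider, with an SD of 0.036 for the pregnant group and 0.17 for the pseudopregnant group. The difference of -0.09 ± 0.081 (SE; 95% interval -0.27 to 0.088) did not pass (limma adjusted p = 0.51), and it was -0.015 without pseudopregnant replicate 2 and -0.15 without pseudopregnant replicate 3. Within arrays, Cdk4 minus Cdk6 was 0.24 higher in the pregnant group (exact permutation p = 0.086, 0.26 adjusted over the 6 pairs), which does not show that the kinases differed in response.

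Of the CIP/KIP inhibitors, Cdkn1b (p27) had 2 probe sets and Cdkn1c (p57) had 1. The brighter Cdkn1b probe set, which represents the gene, read 8.29, 8.53, 8.25 and 8.27 on the pregnant arrays, against 8.06, 8.18, 8.31 and 8.29 on the pseudopregnant arrays. Pregnant replicate 2 was the highest of the 8, and the others overlapped. The difference was 0.13 ± 0.080 (SE; 95% interval -0.053 to 0.30; limma adjusted p = 0.36). It was 0.062 without pregnant replicate 2 and 0.075 without pseudopregnant replicate 1. The dimmer Cdkn1b probe set went the other way, with 6.43, 6.25, 6.01 and 6.48 on the pregnant arrays, against 6.55, 6.54, 7.28 and 6.66 on the pseudopregnant arrays. Every pregnant value was below every pseudopregnant one, as for 5.38% of all kept probe sets, and pseudopregnant replicate 3 stood far above the others. Its difference of -0.46 ± 0.16 (SE; 95% interval -0.83 to -0.099) did not pass (limma adjusted p = 0.13), and it was -0.29 without pseudopregnant replicate 3. The brighter minus the dimmer probe set was 2.04 ± 0.25 in the pregnant group and 1.45 ± 0.29 in the pseudopregnant group (SD, n = 4 each), a shift of 0.59 with no overlap. The exact permutation p of that shift was 0.029, the smallest 70 arrangements can give, and this comparison was chosen after the values had been seen. The direction of Cdkn1b therefore depends on the probe set, and the mean of both gave -0.17 (adjusted p = 0.36).

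Cdkn1c, an imprinted inhibitor expressed from the maternal copy, read 6.47, 6.39, 6.58 and 6.69 on the pregnant arrays, against 6.72, 6.53, 6.60 and 6.62 on the pseudopregnant arrays. The pregnant arrays held both the lowest values and 1 of the 2 highest. The difference of -0.09 ± 0.072 (SE; 95% interval -0.25 to 0.074) did not pass (limma adjusted p = 0.48). It was -0.041 and -0.14 without pregnant replicates 2 and 4, and -0.053 without pseudopregnant replicate 1. Within arrays, Cdkn1b minus Cdkn1c was 0.21 higher in the pregnant group (exact permutation p = 0.23, adjusted 0.39). It was 0.10 without pregnant replicate 2, 0.13 without pseudopregnant replicate 1, and -0.081 with the mean of both Cdkn1b probe sets.

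**Figure D4:**
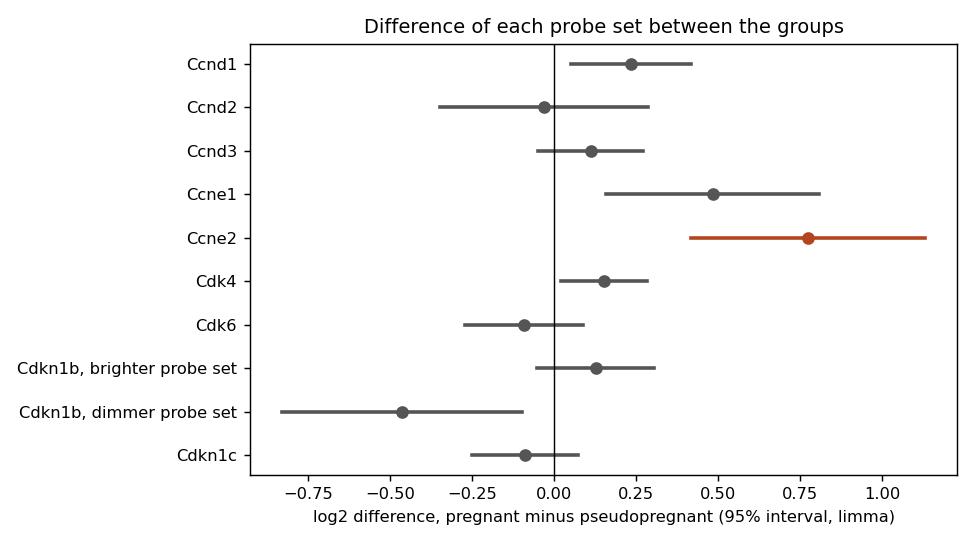
Log2 difference of each probe set, pregnant minus pseudopregnant, with its 95% interval from limma. The interval of Ccne2, 0.42 to 1.13, belongs to the only member with an adjusted p under 0.05. Those of the 2 Cdkn1b probe sets, -0.053 to 0.30 and -0.83 to -0.099, do not overlap.

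Genes around this step were followed in 11 lists of 142 genes in all, of which 118 were measured. Together 4 rose and 2 fell, 5.08% of them against 1.82% of all kept probe sets, with a median difference of 0.036. The lists were chosen with earlier results of these data known, so the larger share is a description and not independent evidence of an excess. It also sets 1 probe set per gene, the brightest, against all kept probe sets, and the 118 include the member Cdkn1c. These 6 calls were sensitive to single arrays, and without pregnant replicate 1 or pseudopregnant replicate 1, 2 or 3 none of the 118 passed, while 13 passed without pregnant replicate 3. Without pregnant replicates 2 and 4 the counts were 2 and 1, and without pseudopregnant replicate 4 the count was 2.

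Of the 17 measured replication genes driven by E2F factors 2 rose and 0 fell, beside 1.41% and 0.412% of all kept probe sets. All 17 differences were above 0, also after each of the 3 other scalings, as for 50.6% of all kept probe sets. They ran from 0.20 to 0.93 with a median of 0.33. At an unadjusted limma p under 0.05, 16 of 17 were higher, beside 14.3% of all kept probe sets. Pola1, the catalytic subunit of the polymerase that primes replication, read 7.40, 7.35, 7.09 and 7.31 on the pregnant arrays, against 6.73, 6.92, 6.99 and 6.92 on the pseudopregnant arrays. The groups did not overlap, and Pola1 rose by 0.40 ± 0.082 (SE, limma adjusted p = 0.045). Pcna, the sliding clamp of the replication fork, rose too, by 0.55 ± 0.094 (SE, adjusted p = 0.028). The helicase subunits Mcm5 and Mcm4 differed by 0.43 and 0.47 and did not pass (limma adjusted p = 0.055 and 0.057). The mean log2 intensity of the 17 genes lay between 7.18 and 7.61 on the pregnant arrays, against 6.91 to 7.13 on the pseudopregnant arrays. Pregnant replicate 3 had the lowest of the pregnant means and pseudopregnant replicate 4 the lowest of all, as for Ccne1 and Ccne2.

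Among the Rb pocket proteins and E2F factors 1 of 13 measured genes rose, E2f8, an atypical E2F that represses replication genes. It read 6.65 to 7.67 on the pregnant arrays, against 6.09 to 6.26 on the pseudopregnant arrays. Every pregnant array was higher, most of all replicate 2, and the rise was 0.88 ± 0.18 (SE, limma adjusted p = 0.040; 0.68 without pregnant replicate 2). The activator E2f1 differed by 0.36 (adjusted p = 0.058), the activator E2f3 by 0.35 (0.069) and the pocket protein Rbl1 (p107) by 0.30 (0.079), and these 3 did not pass. The list's median difference was 0.13. At an unadjusted limma p under 0.05, 6 of the 13 were higher and 0 lower, beside 14.3% and 9.43% of all kept probe sets. Of all kept probe sets 1.41% rose.

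Among the later cyclins and CDKs with their switches, 1 of 8 measured genes rose, beside 1.41% of all kept probe sets. All 8 had differences above 0 (7 after repeated quantile normalization), with a median of 0.22, and of 0.15 without pregnant replicate 2. At an unadjusted limma p under 0.05, 3 of the 8 were higher and 0 lower, beside 14.3% and 9.43% of all kept probe sets. The riser was Cdk2, the kinase of the E-type cyclins, with 7.21, 7.27, 7.07 and 7.22 on the pregnant arrays, against 6.85, 6.98, 6.89 and 6.94 on the pseudopregnant arrays. The groups did not overlap, and the rise was 0.28 ± 0.059 (SE, limma adjusted p = 0.049), a call kept under 6 of 18 alternatives, with adjusted p between 0.039 and 0.12. Wee1, which holds CDKs inactive, and Cdc25a, the phosphatase that frees them, differed by 0.28 and 0.17 (limma adjusted p = 0.17 and 0.21), and the S-phase cyclin Ccna2 by 0.37 (adjusted p = 0.25; 0.16 without pregnant replicate 2). Of the 3 subunits of the CDK activating kinase 0 passed in limma and 1, Cdk7, had an unadjusted p under 0.05, with a difference of 0.24 ± 0.057 (SE, adjusted p = 0.060) and groups that did not overlap.

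The other inhibitors and their regulators gave few calls. Of the 4 INK4 inhibitors, which block Cdk4 and Cdk6, 0 passed in limma and 0 had an unadjusted p under 0.05, with a median difference of 0.0074 (0.014 without pregnant replicate 2). The largest was Cdkn2c (p18), at 0.29 ± 0.14 (SE, adjusted p = 0.24), and 0.18 without pregnant replicate 2. Of 15 genes of the ubiquitin ligases that degrade cyclins and CIP/KIP proteins 0 passed in limma. At an unadjusted p under 0.05, 3 were higher, beside 14.3% of all kept probe sets. Among these 3 were Dtl (0.56, adjusted p = 0.052), a substrate receptor for p21, and Skp2 (0.32, adjusted p = 0.089), the receptor for p27. Of the 15 differences 7 were below 0, and the median was 0.0046. Of 14 measured genes of the p53 list, where p53 itself was given no value, 1 fell and 0 rose. At an unadjusted limma p under 0.05, 2 were higher and 2 lower, beside 14.3% and 9.43% of all kept probe sets. Of the 14 differences 6 were above 0 and 8 below, with a median of -0.01 (-0.10 without pregnant replicate 2). The stress-induced Sesn2, which limits growth signalling, fell by 0.26 ± 0.052 (SE, limma adjusted p = 0.040). Perp, a junction protein, differed by 0.40 (adjusted p = 0.056). Of 9 measured FoxO factors and targets 1 fell, Fbxo32, a ubiquitin ligase subunit known from muscle wasting, by 0.45 ± 0.091 (SE, limma adjusted p = 0.041), and 8 of the 9 had differences below 0 (7 to 9 under other scalings), with a median of -0.08. Klf15, a FoxO target in that list, differed by -0.18 (adjusted p = 0.14). Without single arrays the Sesn2 call was lost in 7 of 8 cases and the Fbxo32 call in 7 of 8.

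Of the genes upstream of the D-type cyclins, 11 measured transcription factors induced by growth factors gave 0 calls in limma and 0 at an unadjusted p under 0.05, with 8 differences below 0 and a median of -0.17, which was -0.09 without pregnant replicate 2. Jund differed by -0.19 (adjusted p = 0.22) and Fos by -0.38 (0.41), with -0.24, -0.58 and -0.12 for Fos without pregnant replicate 2 and pseudopregnant replicates 2 and 3. Of 17 measured uterine regulators of proliferation and of decidual cyclin D3, 0 passed in limma, 6 had differences below 0 and the median was 0.035. At an unadjusted p under 0.05, 5 were higher, beside 14.3% of all kept probe sets. They included the growth factors Fgf2 (0.46, adjusted p = 0.075) and Fgf9 (0.30, 0.11), the receptor Egfr (0.14, 0.20) and Bmp2 (0.99, 0.19), a signal of decidualisation whose difference was 0.49 without pregnant replicate 2. Of the 7 measured genes of the imprinted domain that holds Cdkn1c 0 passed and 1 was lower at an unadjusted limma p under 0.05, the transporter Slc22a18 (-0.19, adjusted p = 0.0998), with a median of -0.02 (-0.04 without pregnant replicate 2).

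**Figure D5:**
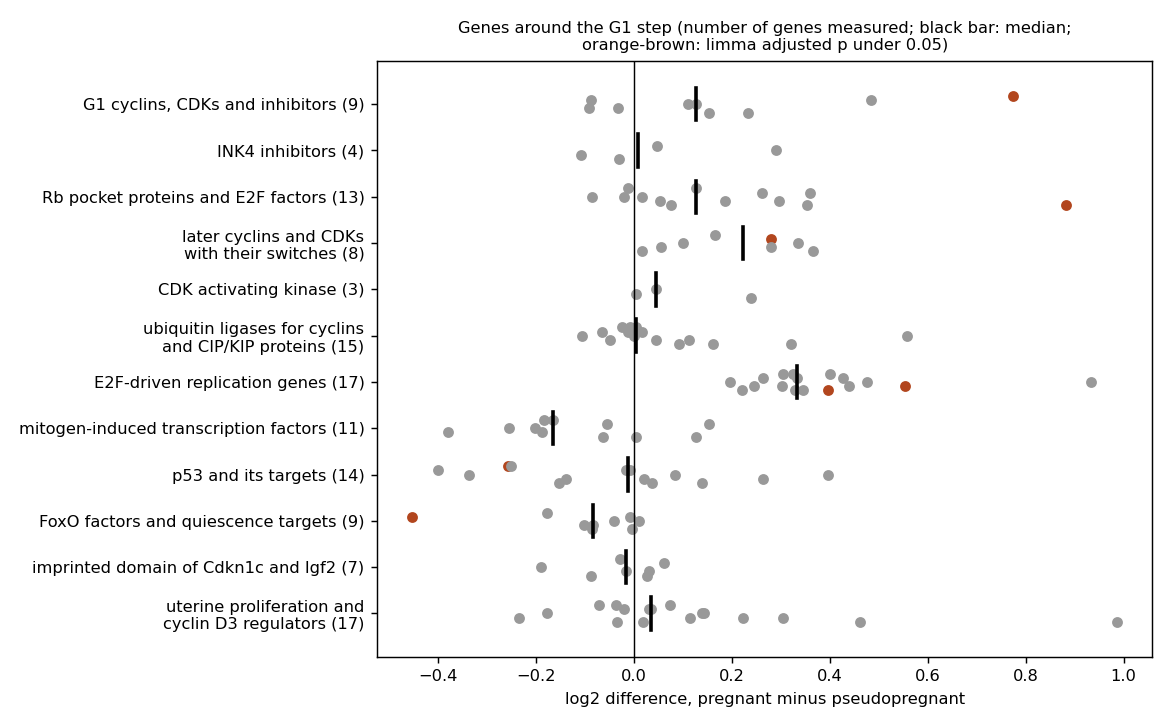
Log2 difference, pregnant minus pseudopregnant, of each measured gene of the G1 set (top) and of 11 lists around it, with the number of genes in brackets, the median as a black bar and genes with a limma adjusted p under 0.05 in orange-brown. All 17 replication genes lie to the right of 0, with a median of 0.33, and 8 of the 11 growth factor induced transcription factors lie to the left, with a median of -0.17 (-0.09 without pregnant replicate 2).

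Most measured markers of immune cells moved with the same contrast as Ccne2. Of 7 measured natural killer (NK) cell and lymphocyte markers 4 rose, led by Gzmb (1.51, limma adjusted p = 0.031) and Il2rb (1.10, 0.034), and the mean of the 7 lay between 6.35 and 6.93 on the pregnant arrays, against 5.72 to 6.21 on the pseudopregnant arrays. Of the 7 differences 1 was below 0, at -0.15, and Klrb1c and Cd79a lay below the filter. Of 10 macrophage and dendritic cell markers 6 rose, led by C1qb (0.56, limma adjusted p = 0.012) and Adgre1 (0.62, 0.025), with means between 6.96 and 7.13 on the pregnant arrays, against 6.69 to 6.80 on the pseudopregnant arrays. Among these 10, 1 had a difference below 0, at -0.27. Over all kept probe sets 1.41% rose. Leaving out single arrays gave 0 to 5 calls among the 7 NK and lymphocyte markers, with 0 without pregnant replicate 4 or pseudopregnant replicate 1, 2 or 3. It gave 1 to 3 calls among the 10 macrophage and dendritic cell markers, with 1 without pseudopregnant replicate 1, 2 or 3. Of 9 measured epithelial markers 0 passed in limma (3 lower at an unadjusted p under 0.05) and 8 had differences below 0, such as Krt19 (-0.46, adjusted p = 0.15; -0.28 without pseudopregnant replicate 1) and Cldn3 (-0.44, 0.12). Their median difference was -0.16, and -0.08 without pregnant replicate 2. Their mean lay between 7.12 and 7.42 on the pregnant arrays, against 7.41 to 7.76 on the pseudopregnant arrays. Of 8 endothelial markers 0 passed in limma (3 lower at an unadjusted p under 0.05) and 8 had differences below 0 (7 with arrays centred on their medians), with Tie1 at -0.30 (adjusted p = 0.083) and means between 8.20 and 8.39 on the pregnant arrays, against 8.41 to 8.54 on the pseudopregnant arrays. Stromal markers gave 0 calls in limma and 1 higher at an unadjusted p under 0.05, Pdgfrb (0.25, adjusted p = 0.12). Of the 10 stromal differences 9 were above 0, also after each of the 3 other scalings. Their median was 0.077, and 0.048 without pregnant replicate 2. The mean of the stromal markers was 9.86 to 10.02 on the pregnant arrays, against 9.80 to 9.91 on the pseudopregnant arrays. Smooth muscle markers gave 0 calls in limma and 2 lower at an unadjusted p under 0.05. Of the 8 differences 4 were above 0 and 4 below, with a median of 0.013 (-0.045 without pregnant replicate 2). They ran from -0.22, that of Myh11 (adjusted p = 0.070), to 0.25. The mean of the 8 markers was 9.82 to 10.03 on the pregnant arrays, against 9.74 to 10.01 on the pseudopregnant arrays. Of 8 blastocyst markers 5 lay below the filter, Cdx2, Pou5f1, Nanog, Sox2 and Elf5, and of the 3 measured 0 passed in limma. Eomes, also known as a factor of NK cells, differed by 0.72 (adjusted p = 0.057) with groups that did not overlap. Pregnant arrays lay above without overlap for 9.23% of all kept probe sets. Eomes lay above the 40th percentile on 4 pregnant and 0 pseudopregnant arrays, so its entry into the test rested on the pregnant arrays alone. Gata6 differed by -0.17 (adjusted p = 0.18), with an unadjusted limma p of 0.035. The part of these cell types in the Ccne2 result was not tested.

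The 3 members that varied most over the 8 arrays were Ccne2, Ccne1 and Ccnd2, and for each the closest profiles among 13039 genes were found by the root mean square difference of log2 values, each gene centred on its mean over the 8 arrays. Closest to Ccne2 were Hells (0.17), Kif15 (0.18) and Chaf1b (0.18). Closest to Ccne1 were Melk (0.094), Slc5a3 (0.096) and Kif20b (0.097), each with pregnant replicate 2 standing 0.54 or more above its own mean. Closest to Ccnd2 were Eno2 (0.079), Tubb4a (0.085) and Pi15 (0.088), each with pregnant replicate 2 below its own mean. The search took the 8 arrays together, so a shared difference between the groups and shared single arrays both make profiles alike.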

How the data were processed

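RNA of 8 samples, 4 in each group, was hybridised to 1 array each; titles give the group and a biological replicate number. No source used here says that each sample is 1 animal. The p-values set the group difference against the spread between these samples, which may not be a spread between animals. The authors deposited linear probe set intensities computed by RMA, per the submitters' processing notes, with no version. RMA compresses low intensities. Here log2 was taken, and 6612 probe sets with the lowest identifiers, which have no gene in the platform's table, were treated as controls and dropped, an inference. Of 28944 others, 21789 had 1 gene symbol, 1621 several and 5534 none listed; genes are named from the first kind alone. The filter asked that 4 or more arrays exceed their own 40th percentile, which 17494 did. The probe set with the highest mean stood for its gene. Groups were tested with limma 3.58.1 (lmFit, eBayes; R 4.3.3), two-sided, with a group term only, and 6 within-array pairs by exact permutation; 4 arrays a group limit the precision. The code was tested on simulated data. Figures used matplotlib 3.10.9 (Python 3.11.15). Promoters came from RefSeq, matched by symbol for 5 of 9 measured members.

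Members, lists and tests were chosen with earlier results of these data known. Genes named are all members, up to 4 per pathway list and 2 per marker list taken from those with the smallest p, and the 3 nearest profiles of the 3 most variable members. Alternatives were other filters, scalings and variance models, array weights, an offset of 16, averaged probe sets, a replicate block and leaving out each array.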

Additional observations from a re-analysis of the deposited data

Results flagged for a closer look

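Single arrays that stood far from the other 3 of their group, by the size of the gap relative to the group's range, were looked for in 92 groups of 4 arrays (the probe sets of the members and of the list genes named above, in each group, without the nearest profiles and the blastocyst markers), and 10 were found; chance gives about 1 in 20 groups. Among the members, the brighter Cdkn1b probe set read 8.526 on pregnant replicate 2, against 8.248 to 8.291 on the other pregnant arrays. The dimmer Cdkn1b probe set read 7.276 on pseudopregnant replicate 3, against 6.545 to 6.657. The INK4 inhibitor Cdkn2c read 7.069 on pregnant replicate 2, against 6.591 to 6.648. Low values on pregnant replicate 3 were those of E2f3 (6.582, against 6.948 to 6.977), Dtl (6.883, against 7.347 to 7.438) and Pcna (9.396, against 9.732 to 9.785). Fbxo32 was high on pregnant replicate 4 (7.917, against 7.535 to 7.565). In the pseudopregnant group, Sesn2 was low on replicate 4 (6.141, against 6.232 to 6.244), Klf15 was high on replicate 1 (6.802, against 6.623 to 6.634) and Gzmb was high on replicate 4 (6.514, against 5.833 to 5.871). Without pregnant replicate 3, E2f3 and Dtl passed the threshold (limma adjusted p = 0.022 and 0.019), and without pseudopregnant replicate 4 the Gzmb difference was 1.67.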

How the results depend on the processing

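Of 17494 kept probe sets 319 passed; 54 passed with no intensity filter, 708 with an intensity trend and robust variances, 174 with the replicate block, and 40 to 235 without single arrays. Members passing numbered 1, against 0 with no filter, 0 with the stricter filter (which leaves Ccne2 untested), 2 with the block and 0 to 1 without single arrays. Pathway list genes passing numbered 6, against 0 with no filter, 14 with the trend, 2 with the block and 0 to 13 without single arrays. Ccne2 differed by 0.77 with no filter (limma adjusted p = 0.078) and by 0.65 to 0.91 without single arrays. With the replicate block Ccne1 differed by 0.48 (limma adjusted p = 0.049). Same-numbered arrays deviated together with correlations of 0.245, 0.0162, -0.103 and 0.0442, and 3 of 8 correlated best with their own number. So few arrays neither show nor exclude a pairing by number. The Ccnd2 difference turned to 0.044 with array weights and ran from -0.11 to 0.11 without single arrays, at 0.11 without pregnant replicate 2 and 0.064 without pseudopregnant replicate 2. Ccnd2 minus Ccnd3 ran from -0.22 to 0.049. With the mean of all probe sets Cdkn1b differed by -0.17 and Cdkn1b minus Cdkn1c by -0.081, since the dimmer probe set enters. Other causes were not tested. Of 665 values of the other named genes under alternatives, 571 kept their direction and side of the threshold. A call was lost in 74 and gained in 20, and 0 reversed. Many of these genes were not called with all 8 arrays and had no call to lose, so all 74 losses fell on called genes. The call was lost under 12 of 18 alternatives for Cdk2, 11 for Sesn2 and 9 for Pola1. It was lost under 8 for each of E2f8, Pcna, Fbxo32 and Il2rb, 6 for Gzmb, 4 for Adgre1 and 0 for C1qb. With 4 arrays a group, differences of low intensity such as that of Ccne2 are limited by background.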
